A study of Mus musculus with 137 samples.

Results

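SR1848, a small-molecule inhibitor of the nuclear receptor NR5A2, was set against its solvent DMSO, with 1 mouse embryo of the 2-cell stage per library. The embryos were taken by their labels: those of experiment 1 given SR1848, except number 8, and those of experiment 1 given DMSO, except numbers 6, 13 and 16. That makes 32 of the 137 libraries of the series, 16 with SR1848 (of 17 so labelled) and 16 with DMSO (of 19). SR1848 embryos were B6129F1 zygotes isolated 5 hours after fertilization and kept in KSOM medium with 10 µM SR1848 from 6 hours after fertilization. DMSO embryos were of the same strain and isolated at the same time, and their medium held 0.1% DMSO from 6 hours. Both groups were cultured in wet chambers with no oil layer. The labels give the stage as 2-cell and no hour of collection, so the age of an embryo within that stage is not known. Polyadenylated RNA of each embryo was primed with oligo-dT and amplified by SmartSeq2, and 1 library is 1 embryo.

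Library totals were 3951906 to 6279732 counts (median 4647655) with SR1848, against 4748649 to 9317721 (median 5449696) with DMSO. Levels are counts per 1000000 (CPM), scaled between libraries by TMM, the trimmed mean of M-values. They are shares of a library: the amount of RNA in an embryo was not measured, so fewer molecules of 1 transcript and more of the others cannot be told apart. Embryos may share parents, and each error and p covers the spread between embryos. The 4 libraries left out held 100883 to 1644926 counts, and the 3 DMSO libraries among them held 1138 to 5715 genes. Among those left out, SR1848 embryo 8 held 34.5 CPM and DMSO embryos 6 and 13 held 317 and 146 CPM of a GFP sequence, though the labels name no injection for them. Embryos 4 and 10 of the SR1848 group stood apart from the other SR1848 embryos and are named where they set a value.

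A mouse embryo starts with RNA stored in the oocyte, and most of that RNA is removed while the zygotic genome is switched on, in a main wave at the 2-cell stage. NR5A2 is an orphan nuclear receptor that binds DNA as a monomer, at sites that match TCAAGGNCA, and the title of the series names it as a factor of this activation. Genes of the main wave are known to include those for building ribosomes, for nucleotide synthesis, for splicing and for protein folding. Oocyte transcripts such as those of the zona pellucida and the subcortical maternal complex are known to be degraded over the same time. SR1848 is known to lower the expression of NR5A2 in human liver cancer cells, as well as its activity.

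Genes for ribosome synthesis, nucleotide synthesis, splicing, mitochondrial protein import and protein folding held a far smaller share of counts with SR1848 than with DMSO. Oocyte transcripts held a larger share. Of 11797 genes tested with edgeR's quasi-likelihood test and Benjamini-Hochberg adjustment, 4454 (37.8%) were higher and 5143 (43.6%) lower at an adjusted p under 0.05. At least 2-fold changes were 3589 rises (30.4%) and 4566 falls (38.7%). All 16 SR1848 embryos lay above all 16 DMSO embryos in 1203 genes (10.2%) and below them in 2293 genes (19.4%). These percentages are the background for every list count below. The 2 directions differed in size: 1244 genes fell and 80 rose at least 16-fold. A median of at least 10 CPM in one group and under 1 CPM in the other was found for 91 genes high with SR1848 and for 751 genes high with DMSO. The median fold change over all genes tested was -0.18 on the log2 scale.

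The split between rises and falls depends on the scaling and on the libraries used. When libraries were scaled so that the maternal transcript list kept its level, 845 genes were higher and 8775 lower, and the median of all genes moved to -2.18. Rises are then 8.78% of the calls, against 46.4% with TMM. So the rises given here are rises relative to the bulk of each library, and a rise of less than about that shift turns into a fall when oocyte transcripts are taken as the fixed point. With all libraries of experiment 1, 4401 genes were higher and 3919 lower, and the median was 0.17. The genes called also depended on level: 61.4% of the 415 most abundant genes (8 log2 CPM or more on average) were higher and 24.8% lower, against 28.4% and 44.6% of genes under 2 log2 CPM.

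The number of genes detected per embryo was lower with SR1848. After thinning to 1000000 counts, SR1848 embryos held 11197 to 13819 genes (median 12583) and DMSO embryos 13273 to 14358 (median 14030). The means were 12482 ± 589 with SR1848 and 13980 ± 268 with DMSO (SD, n = 16 each), a difference of -1498 genes (2-sided permutation test, p = 2e-05, the smallest its 100000 resamples can give). With all libraries of experiment 1 that held enough counts, the difference was -996 (p = 0.049). No count was found in any SR1848 embryo for 20 of the genes tested, and 125 had none in at least 14 of the 16; 1 gene had none in at least 14 DMSO embryos.

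**Figure D1:**
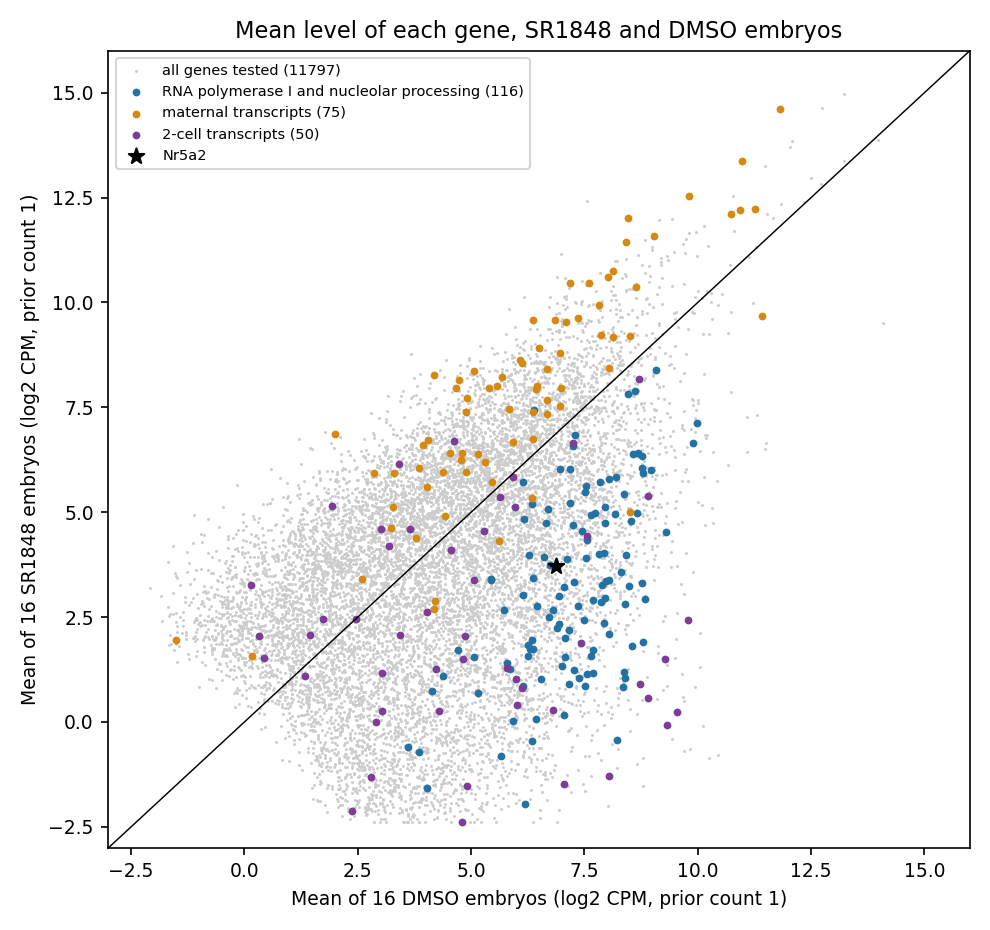
Mean level of each of the 11797 genes tested, with the 16 SR1848 embryos on the vertical axis and the 16 DMSO embryos on the horizontal axis (both log2 CPM with a prior count of 1); the line marks equal levels. Of 116 nucleolar genes 115 lie below the line, with most maternal transcripts above it, and 2-cell transcripts on both sides.

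Nr5a2 (ENSMUSG00000026398, chromosome 1, 136842571 to 136960448 on the minus strand of GRCm38), the gene of the inhibited receptor, ran from 6.04 to 24.3 CPM (median 13.4) in SR1848 embryos, against 86.8 to 181 CPM (median 111) in DMSO embryos. No SR1848 embryo reached the lowest DMSO embryo. The fold change was -3.10 on the log2 scale (SE 0.18, edgeR adjusted p = 1.87e-17), and it was -5.14 when scaled to the maternal list. The count table also lists an Nr5a2 sequence apart from the annotated transcripts, which is not in this sum. It held 13.9 to 86.0 CPM (median 43.7) in SR1848 embryos and 28.2 to 175.7 CPM (median 59.9) in DMSO embryos, with overlap. With that entry added, Nr5a2 was at 31.8 to 94.0 CPM (median 55.2) in SR1848 embryos and 113 to 351 CPM (median 165) in DMSO embryos, still without overlap, and the change was -1.69 log2 (SE 0.16, edgeR adjusted p = 6.72e-12). How reads divide between the entry and the transcripts is an estimate, so the size of the change in Nr5a2 depends on which sum is taken. SR1848 embryos of experiment 2 had 4.11 to 31.7 CPM of Nr5a2 (median 17.8).

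Nuclear receptors, proteins that mostly bind lipid-like ligands, moved in both directions. Of the 22 measured members of the list used, Nr5a2 among them, 11 rose, 6 fell and 5 did not pass. When scaled to the maternal list 5 rose and 13 fell. Nr2e1, another nuclear receptor, rose by 4.48 log2 (35.1 to 133 CPM with SR1848 and 0 to 11.6 CPM with DMSO). It was not in the list, so these counts and the summed share leave it out. The summed share of the list was lower without overlap, at 0.0458% to 0.0672% (median 0.0607%) with SR1848 and 0.0744% to 0.114% (median 0.0919%) with DMSO. Nr1h3, the oxysterol receptor LXR alpha, fell to a median of 0 CPM (0 to 0.819) with SR1848, against 29.7 CPM (8.55 to 47.4) with DMSO (-7.00 log2, SE 0.48). Nr2c2, the orphan receptor TR4, was at 2.69 CPM (0 to 18.3) with SR1848 and 332 CPM (232 to 477) with DMSO (-6.27 log2, SE 0.49). Both genes, like Rarg, a retinoic acid receptor (-5.16), had no overlap between the groups. Rarb, another retinoic acid receptor, had a median of 15.8 CPM (0 to 33.5) with SR1848 and 0 CPM (0 to 2.52) with DMSO. Pparg, the receptor that drives fat cell formation, rose by 4.01 log2 (SE 0.60), and Rora, a receptor of the circadian clock, by 3.01 (SE 0.30). Those 3 rises held when scaled to the maternal list (Rarb 3.41, Pparg 1.99 and Rora 1.05). Esrrb, which in mouse embryonic stem cells binds sites much like those of NR5A2, fell by 1.89 log2 (SE 0.43), with overlap.

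The genes with the largest falls were abundant with DMSO and at or near 0 with SR1848. Ctsc (ENSMUSG00000030560, chromosome 7, 88278085 to 88310888), the lysosomal protease cathepsin C, had a median of 0.0819 CPM (0 to 8.33) with SR1848 and 1243 CPM (799 to 1850) with DMSO, a change of -9.77 log2 (SE 0.58, edgeR adjusted p = 7.11e-17). Counts of Ctsc were seen in 8 of the 16 SR1848 embryos and in all DMSO embryos. Rab20, a small GTPase of endosomes and phagosomes, was at 0.246 CPM (0 to 8.74) with SR1848, against 799.7 CPM (519 to 1381) with DMSO (-9.37 log2, SE 0.54). Btbd18, a BTB-domain protein of the nucleus, fell by 9.37 (SE 0.55) and Exoc3l2, a relative of exocyst subunits, fell by 9.07 (SE 0.55). In these 4 genes no SR1848 embryo was above 14.4 CPM and no DMSO embryo below 519 CPM.

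For 4 of the named falls no SR1848 embryo had a count, so the change is a lower bound against a floor of 3 counts in each SR1848 library. Gorasp1, a protein that stacks Golgi membranes, had 61.6 to 215 CPM (median 126) in DMSO embryos and was at least 191-fold lower with SR1848. Tead4, a DNA-binding factor needed for the trophectoderm, had 32.0 to 170 CPM (median 76.3) with DMSO and was at least 141-fold lower. Sardh, the mitochondrial sarcosine dehydrogenase, was at least 75.8-fold lower, and Chrna10, an acetylcholine receptor subunit, at least 67.1-fold lower. Gpr161, an orphan receptor of the primary cilium that restrains Hedgehog signalling, had counts in 1 SR1848 embryo (0.292 CPM), against 55.4 to 145 CPM (median 89.5) with DMSO. Stmn3, a stathmin that destabilises microtubules, had counts in 2 SR1848 embryos (-9.59 log2, SE 0.47). Gorasp1 overlaps Wdr48 on the other strand, and the protocol keeps no strand, so reads of such pairs cannot be assigned for certain. Gm3106 and Gm7792, predicted genes that lie near each other on chromosome 5 and may share reads, had counts in 2 SR1848 embryos each, with DMSO medians of 135 and 103 CPM.

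The 12 largest rises were taken by the same rule, with the SR1848 mean at least 5 log2 CPM, and were smaller than the largest falls. Rarb rose by 5.35 log2 but its groups overlapped, so it is not among them. Gadd45g (chromosome 13, 51846678 to 51848468), a stress-response gene, had a median of 67.9 CPM (26.5 to 124) with SR1848 and 1.41 CPM (0 to 5.44) with DMSO, a change of 5.45 log2 (SE 0.35, edgeR adjusted p = 3.7e-16). Car9, a carbonic anhydrase of the cell surface, was at 449 CPM (328 to 556) with SR1848 and 10.8 CPM (6.16 to 28.0) with DMSO (4.97 log2, SE 0.23). The tightest of these groups is the SR1848 group of Car9, whose highest embryo is less than 2-fold above its lowest. Il12rb2, a chain of the interleukin-12 receptor, rose by 5.01 log2 (SE 0.53), Stat6, which signals for interleukin-4, by 4.65 (SE 0.47), and Nr2e1, an orphan receptor of neural stem cells, by 4.48 (SE 0.39). Pkd2l2, a member of the polycystin channel family, reached 5129 CPM (3954 to 9119) with SR1848, against 166 CPM (86.3 to 602) with DMSO (4.67 log2, SE 0.25). The lack of overlap between the groups in these 6 genes was set by the rule. Pabpc1l, Samd10, Psenen, Htr5a, Car10 and Nckap1l made up the 12, with rises of 4.39 to 4.68 log2.

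**Figure D2:**
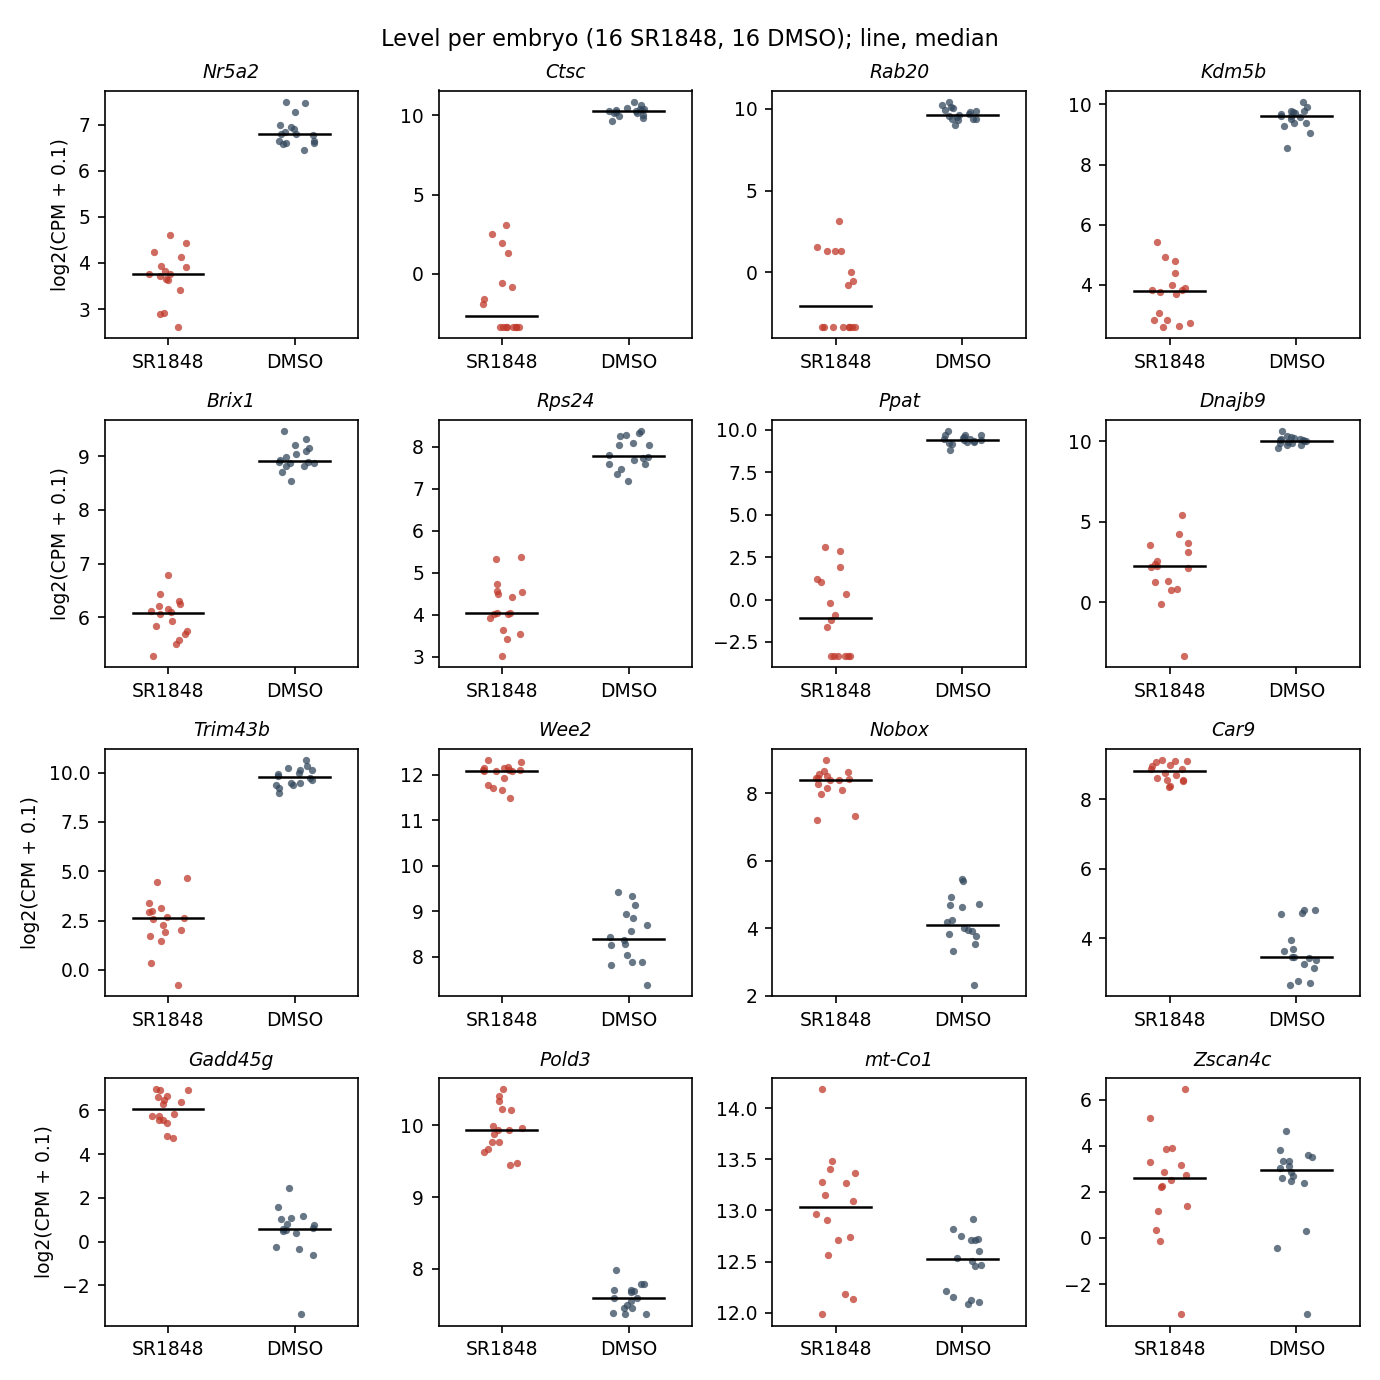
Level of 16 genes in each embryo, as log2(CPM + 0.1), with SR1848 embryos left and DMSO embryos right in each panel and a line at the median; each panel has its own vertical axis. The groups are apart in every panel except mt-Co1 and Zscan4c, and embryos at the floor of the axis had no count. Ctsc, Rab20, Car9 and Gadd45g were picked by a rule that asks for groups without overlap.

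The nuclear receptor site could be looked for in promoters. RefSeq windows of 300 bases (250 before to 50 after a gene's start, build GRCm38.p6) were matched by symbol to 75.4% of the genes tested, and the letters TCAAGGNCA were searched on both strands. A gene was counted if any of its windows held a match. That was so for 1.30% of the genes tested that had a window (116 of 8898). Counted by window and not by gene, 1.62% of all 32851 windows of the table held a match. Among genes at least 16-fold lower with SR1848 the share was 2.32% (21 of 904), among those 2-fold to 16-fold lower 0.844%, among all lower genes 1.27%, among all higher genes 1.27% and among genes not called 1.43%. A match is a run of letters and not a site shown to be bound. The windows with a match on the written strand among the named genes that fell are printed 5′ to 3′ with the match in capitals, because the SR1848 medians of these genes were at or near 0. They belong to Gpr161 (chr1:165295516-165295815, plus strand, match starting at -83 from the gene's start), Ppat (chr5:76951529-76951828, minus strand, at -137) and Elovl6 (chr3:129532136-129532435, plus strand, at -188).
Gpr161: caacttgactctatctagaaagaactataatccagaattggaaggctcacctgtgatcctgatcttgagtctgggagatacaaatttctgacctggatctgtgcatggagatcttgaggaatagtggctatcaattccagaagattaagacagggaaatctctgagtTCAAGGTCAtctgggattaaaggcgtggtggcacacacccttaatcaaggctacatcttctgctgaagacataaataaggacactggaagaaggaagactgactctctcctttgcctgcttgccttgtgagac
Ppat: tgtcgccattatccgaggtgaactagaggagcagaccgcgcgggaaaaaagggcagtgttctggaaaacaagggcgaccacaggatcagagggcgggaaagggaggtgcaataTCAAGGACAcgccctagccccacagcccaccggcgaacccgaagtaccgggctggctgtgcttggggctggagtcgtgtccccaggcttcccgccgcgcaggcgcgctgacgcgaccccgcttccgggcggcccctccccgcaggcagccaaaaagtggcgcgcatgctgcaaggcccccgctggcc
Elovl6: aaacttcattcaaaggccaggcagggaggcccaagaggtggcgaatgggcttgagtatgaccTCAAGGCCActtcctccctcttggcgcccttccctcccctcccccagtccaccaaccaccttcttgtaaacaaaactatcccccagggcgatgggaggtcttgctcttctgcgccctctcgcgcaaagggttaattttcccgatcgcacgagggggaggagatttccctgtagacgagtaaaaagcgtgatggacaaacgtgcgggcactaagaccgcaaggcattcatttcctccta
Spans of genes differed too, with a median of 15054 bases for genes at least 16-fold lower, 35494 for higher genes and 24874 for all genes tested. The part of gene length in the calls was not tested.

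Genes for making ribosomes fell nearly without exception. Of 116 genes of RNA polymerase I and nucleolar processing, 115 fell, against 43.6% of all genes tested, and 91 of them had every SR1848 embryo below every DMSO embryo, against 19.4%. The median of the list was -3.61 log2, against -0.18 for all genes. Together they held 0.281% to 0.492% of counts (median 0.351%) in SR1848 embryos and 2.17% to 2.97% (median 2.42%) in DMSO embryos. Brix1, a factor of the large subunit, had a median of 67.4 CPM (38.7 to 110) with SR1848 and 483 CPM (371 to 709.6) with DMSO (-2.95 log2, SE 0.13, edgeR adjusted p = 3.71e-20). Wdr43, a subunit of the small-subunit processome, fell by 2.81 (SE 0.13), and Ddx18, a helicase of the nucleolus, fell by 3.83 (SE 0.19). Tsr2, a ribosome maturation factor whose gene overlaps Fgd1 on the other strand, fell by 9.25 (SE 0.46). Ubtf, the factor that opens ribosomal DNA for RNA polymerase I, was at 8.24 CPM (0.273 to 17.9) with SR1848 and 163 CPM (101 to 289) with DMSO. Among the main proteins of the nucleolus, Npm1 was at -3.16 log2 (SE 0.17), Ncl at -2.42 (SE 0.14) and Fbl, the rRNA methyltransferase fibrillarin, at -1.64 (SE 0.32). Riok1, a kinase of the small subunit's last maturation steps, was the 1 rise (1.07 log2, SE 0.19), with 91.0 to 306 CPM with SR1848 and 52.0 to 171 CPM with DMSO, and all 116 fell when scaled to the maternal list.

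Cytosolic ribosomal proteins followed: 79 of 82 fell and 2 rose, with a median of -3.02 log2, and 51 had no overlap. Rps24, of the small subunit, was at 16.4 CPM (8.02 to 41.8) with SR1848 and 221 CPM (145 to 333) with DMSO. Many of these genes have near-identical pseudogene copies, and their estimated counts may be divided among them. Rpl17 rose by 1.05 log2 (SE 0.15) and Rps27l, a variant form induced by p53, by 0.39 (SE 0.17, edgeR adjusted p = 0.0319), and both fell when scaled to the maternal list, where all 82 fell. Rps27l did not pass with relative log expression, total counts, all libraries of experiment 1, the replicate block or DESeq2, or without embryo 10. The summed share was 0.169% to 0.772% (median 0.269%) with SR1848 and 1.07% to 2.00% (median 1.45%) with DMSO. Embryo 4 held the highest SR1848 share, and without it the highest was 0.466%.

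The rest of the translation machinery was also mostly lower. Of 48 translation factors 39 fell and 5 rose (median -2.10). Eif3a, a core subunit of initiation factor 3, was at 16.5 CPM (0.242 to 31.1) with SR1848 and 544 CPM (204 to 952) with DMSO. Eif1a, an early marker of genome activation that aids start-codon scanning, had a median of 0.260 CPM (0 to 13.2) with SR1848 and 136 CPM (106 to 218) with DMSO (-5.95 log2, SE 0.56). The rise that stood clear was Eif4e1b, the oocyte form of the cap-binding protein (3.61 log2, SE 0.22). Of 23 aminoacyl-tRNA synthetase genes 15 fell and 3 rose (median -1.27). Rars fell by 6.48 (SE 0.43) and Aimp2, a scaffold of the synthetase complex, fell by 4.23 (SE 0.28), while Gars rose by 1.52 (SE 0.19) with no overlap. Hars and Hars2, the cytosolic and mitochondrial histidyl-tRNA synthetases, overlap on opposite strands, and both fell (-4.06 and -10.06 log2).

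**Figure D3:**
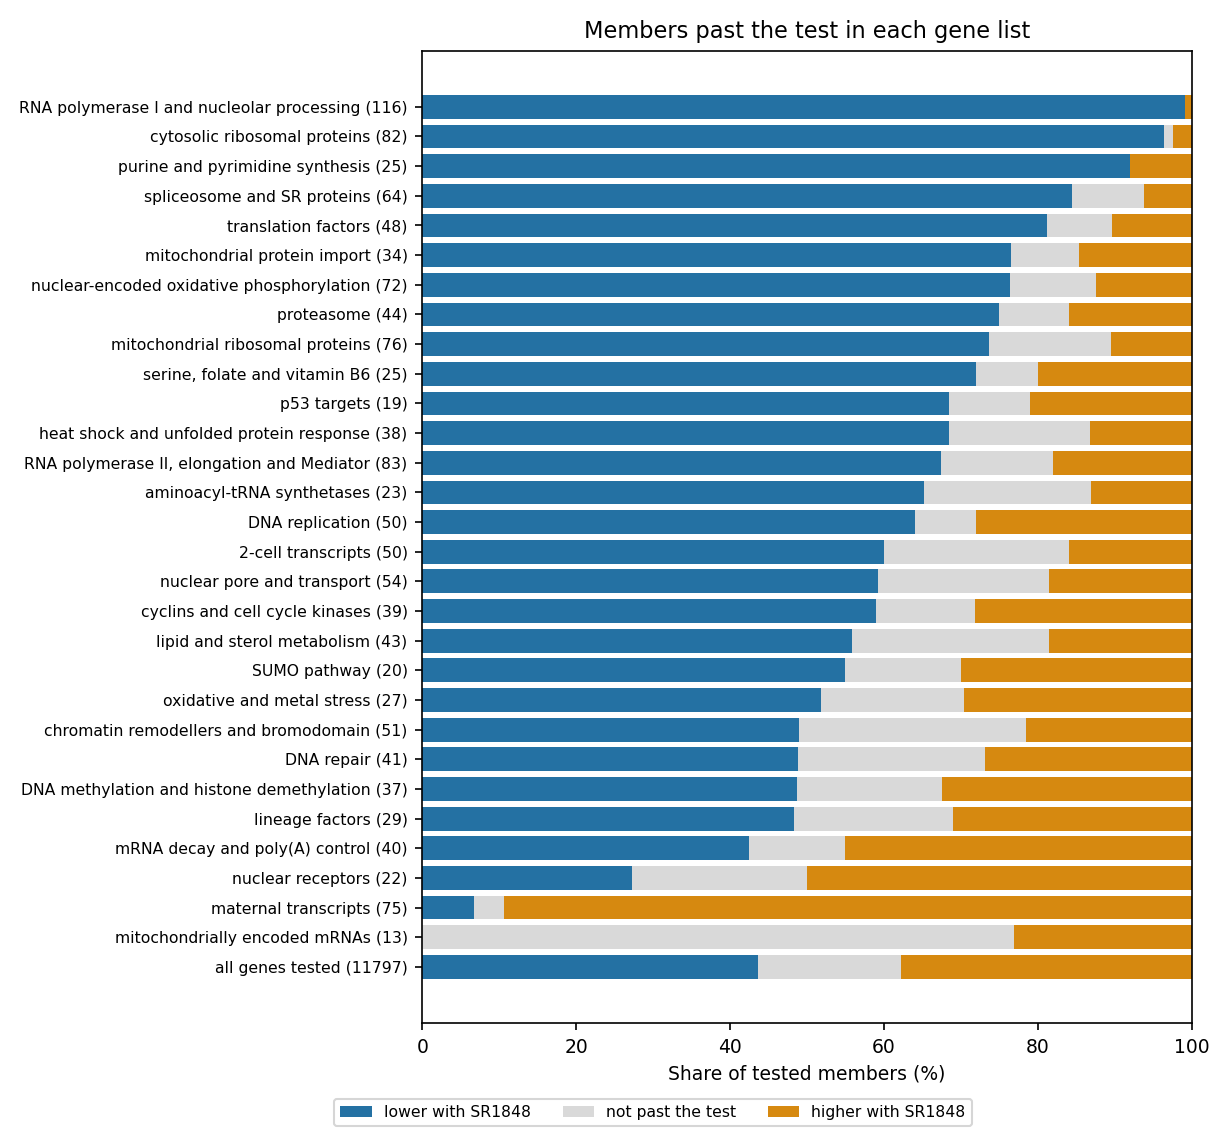
Share of tested members (%) of each gene list that were lower with SR1848, not past the test, or higher with SR1848, at an edgeR adjusted p under 0.05; lists with at least 10 tested members are shown with their number, and all genes tested are the lowest bar. Nucleolar genes (115 of 116 lower) and ribosomal proteins (79 of 82) are at the top, and maternal transcripts are mostly higher (67 of 75).

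Genes that make nucleotides and 1-carbon units were mostly lower. Of 25 purine and pyrimidine synthesis genes 23 fell, with a median of -3.30 log2, and 17 had no overlap. Ppat, the first enzyme of purine synthesis, was at 0.380 CPM (0 to 8.61) with SR1848 and 686 CPM (446 to 978) with DMSO (-8.71 log2, SE 0.54). Paics, a later enzyme of the same pathway whose gene starts next to that of Ppat on the other strand, fell less, by 2.51 (SE 0.14), to 46.4 CPM (26.5 to 60.9) with SR1848, against 283 CPM (158 to 368) with DMSO. The annotated genes overlap, so reads of the shared bases cannot be assigned. Impdh1 (-6.57 log2, SE 0.44) and Gmps (-3.65 log2, SE 0.22), both of guanine nucleotide synthesis, fell too. The 2 rises were Adss (1.96), of adenine nucleotide synthesis, and Dhodh (1.69), the mitochondrial enzyme of pyrimidine synthesis, and neither rose when scaled to the maternal list.

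In the serine, folate and vitamin B6 list 18 of 25 fell and 5 rose (median -2.14). Pdxk, the kinase that activates vitamin B6, was at 1.22 CPM (0 to 18.2) with SR1848 and 822 CPM (427 to 1171) with DMSO. Psat1 (-7.46 log2, SE 0.52) and Phgdh (-4.45 log2, SE 0.24), which make serine from a glycolytic intermediate, fell, and Mat2a, which makes S-adenosylmethionine, fell by 6.71 (SE 0.43). Gcsh, of the glycine cleavage system, was at 22.0 CPM (10.2 to 180.0) with SR1848 and 1434 CPM (835 to 2118) with DMSO. The mitochondrial folate enzymes went the other way: Mthfd2 was at 574 CPM (418 to 734) with SR1848 and 113 CPM (64.9 to 167) with DMSO (2.31 log2, SE 0.13), and Shmt2 rose by 1.65 (SE 0.20). Neither overlapped between the groups. Mthfd2 was the 1 gene of this list that still rose when scaled to the maternal list (0.37 log2).

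Splicing and transcription genes fell as a majority. Of 64 spliceosome and SR protein genes 54 fell and 4 rose (median -1.98), and 32 had no overlap. Snrpa1, a protein of the U2 particle, was at 4.50 CPM (0.866 to 7.38) with SR1848 and 211 CPM (110 to 299.8) with DMSO (-5.62 log2, SE 0.25, edgeR adjusted p = 3.16e-20). Srsf5, a splicing regulator, fell by 3.64 (SE 0.23). Of 83 genes of RNA polymerase II, elongation and Mediator 56 fell and 15 rose (median -1.77). Polr2a, the catalytic subunit, was at 7.05 CPM (0 to 13.3) with SR1848 and 42.2 CPM (24.9 to 68.9) with DMSO, whereas Polr2c, another subunit, rose by 1.69 (SE 0.10) with no overlap and reversed to -0.30 when scaled to the maternal list. Med29, of the Mediator, fell by 6.67 (SE 0.49), Gtf2h5, of the general factor TFIIH, fell by 5.01 (SE 0.28) and Ccnt1, a cyclin of the elongation factor P-TEFb, fell by 3.32 (SE 0.20).

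Traffic through the nuclear pore and the SUMO pathway were mixed. Of 54 pore and transport genes 32 fell and 10 rose (median -1.21). Xpot, the tRNA exporter, was at 0.207 CPM (0 to 1.39) with SR1848 and 109 CPM (54.4 to 162) with DMSO, and Tnpo3, which imports splicing proteins, was at 8.14 CPM (0.242 to 20.4) with SR1848 and 770.0 CPM (385 to 1142) with DMSO. In the SUMO pathway 11 of 20 fell and 6 rose (median -0.71). Sumo2 was at 1.46 CPM (0 to 32.5) with SR1848 and 597 CPM (420 to 812) with DMSO (-7.26 log2, SE 0.54), while Sumo3, whose mature protein is nearly the same, was at 325 CPM (291 to 434) with SR1848 and 113 CPM (63.8 to 182) with DMSO (1.58 log2, SE 0.14). Sae1, of the SUMO-activating enzyme, fell by 3.48 (SE 0.22). When scaled to the maternal list Sumo3 was at -0.38.

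Protein turnover and folding genes fell too. Of 44 proteasome genes 33 fell and 7 rose (median -2.35). Psmb1, a subunit of the catalytic ring, was at 8.05 CPM (1.95 to 28.3) with SR1848 and 229.6 CPM (168 to 299) with DMSO, and Psmd12, of the lid, fell by 4.28 (SE 0.26). Psmf1, which inhibits the proteasome, was the largest rise of the list at 255 CPM (194 to 379.6) with SR1848 and 34.4 CPM (20.0 to 58.2) with DMSO. Of 38 heat shock and unfolded protein response genes 26 fell and 5 rose (median -1.71). Dnajb9, a chaperone of the endoplasmic reticulum, was at 4.68 CPM (0 to 43.9) with SR1848 and 1059 CPM (778 to 1604) with DMSO (-7.05 log2, SE 0.47), and Pdia3, a disulfide isomerase, fell by 4.57 (SE 0.25). Hsf1, the heat shock transcription factor, had 129 to 519 CPM (median 287) with SR1848 and 61.8 to 114 CPM (median 77.6) with DMSO.

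Mitochondria showed a split between nuclear and mitochondrial genes. Of 72 nuclear-encoded genes of oxidative phosphorylation 55 fell and 9 rose (median -1.47), with a summed share of 0.169% to 0.307% (median 0.258%) with SR1848 and 0.394% to 0.683% (median 0.481%) with DMSO. Uqcrfs1, the iron-sulfur protein of complex III, was at 1.94 CPM (0 to 13.2) with SR1848 and 127 CPM (88.9 to 241) with DMSO, and Sdha, of succinate dehydrogenase, rose by 1.85 (SE 0.14) but was at -0.19 when scaled to the maternal list. Of 34 protein import genes 26 fell and 5 rose (median -2.58): Tomm22 (-5.67 log2, SE 0.31) and Tomm20 (-5.51 log2, SE 0.34), receptors of the outer membrane, fell, and Timm10, a chaperone between the membranes, fell by 7.90 (SE 0.57). Of 76 mitochondrial ribosomal protein genes 56 fell and 8 rose (median -1.65). Of the 13 mRNAs encoded by the mitochondrial genome, mt-Co1 (0.55 log2, edgeR adjusted p = 0.00167), mt-Co2 (0.39) and mt-Co3 (0.65) rose and the other 10 did not pass. With all libraries of experiment 1 these 3 did not pass (adjusted p = 0.215, 0.545 and 0.228 for mt-Co1, mt-Co2 and mt-Co3), and mt-Co2 did not pass with relative log expression either (edgeR adjusted p = 0.0957). Their summed share was 3.92% to 11.0% (median 6.28%) with SR1848 and 4.29% to 8.28% (median 5.80%) with DMSO, with wide overlap, and all 13 fell when scaled to the maternal list.

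**Figure D4:**
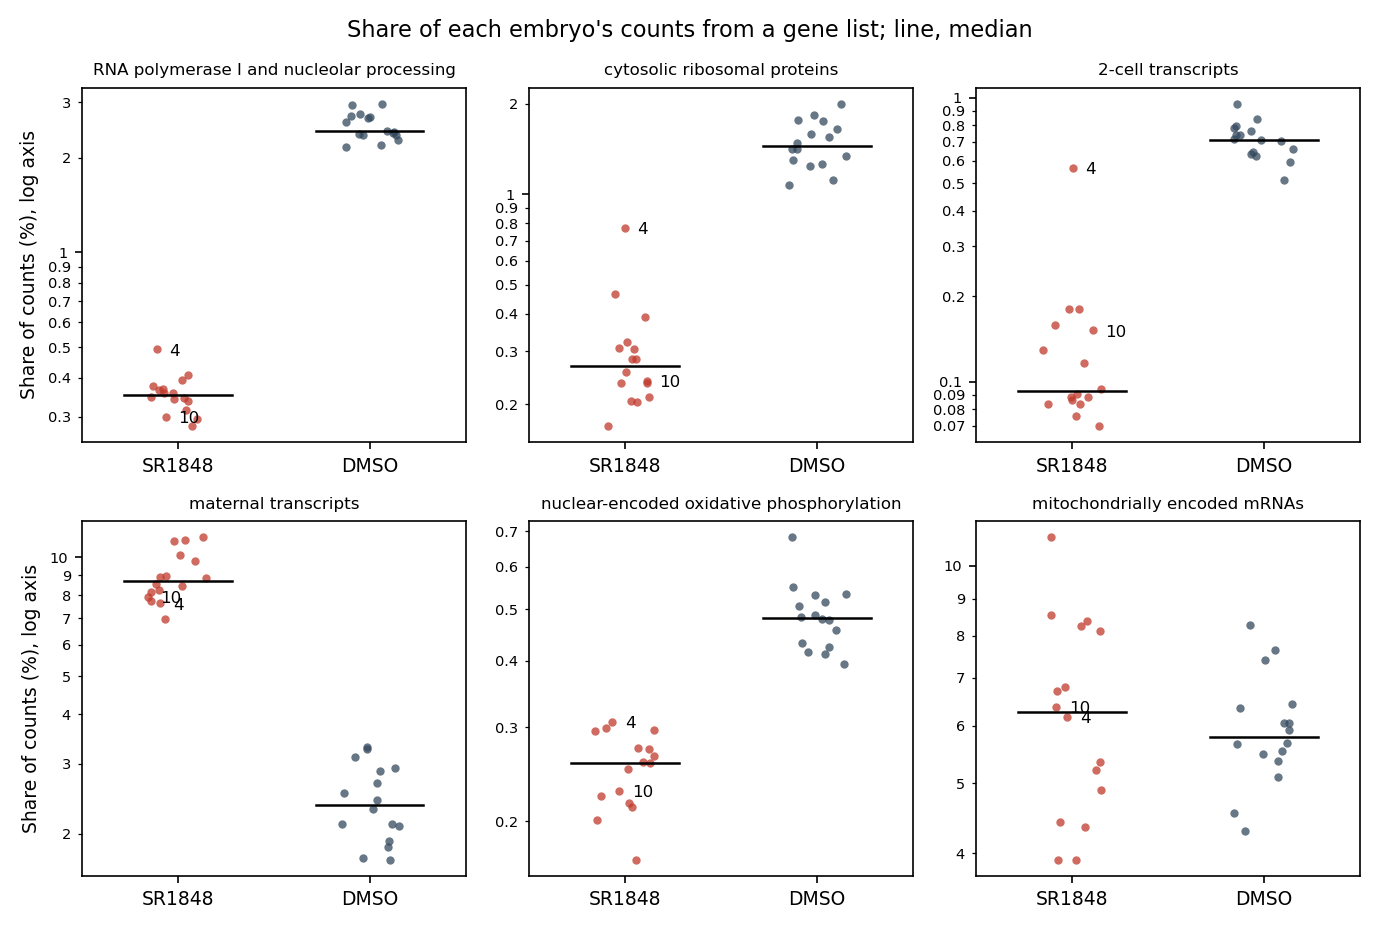
Share of each embryo's counts (%, log axis) from the genes of 6 lists, with SR1848 embryos left and DMSO embryos right in each panel and a line at the median; SR1848 embryos 4 and 10 are numbered. The groups do not overlap for nucleolar, ribosomal protein, maternal and nuclear-encoded oxidative phosphorylation genes; embryo 4 alone brings the SR1848 group into the range of DMSO for 2-cell transcripts, and mitochondrially encoded mRNAs overlap.

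Cell cycle and replication genes were mostly lower, with large rises among them. Of 39 cyclins and cell cycle kinases 23 fell and 11 rose (median -1.22). Cdk1, the kinase of mitosis, was at 19.9 CPM (8.98 to 168) with SR1848 and 524 CPM (439 to 735) with DMSO, and Ccne1, a cyclin of S phase entry, was at 21.3 CPM (11.0 to 126) with SR1848 and 482 CPM (271 to 728) with DMSO. Chek2, a checkpoint kinase, fell by 4.72 (SE 0.32) and Cdc20, which turns on the anaphase-promoting complex, fell by 4.19 (SE 0.25), while Ttk, of the spindle checkpoint, rose by 2.63 (SE 0.15) with no overlap. Among 50 replication genes 32 fell and 14 rose (median -1.18). Gins3, of the replicative helicase, was at 0 CPM (0 to 3.01) with SR1848 and 172 CPM (96.5 to 356) with DMSO. Pold3, of DNA polymerase delta, was at 978 CPM (699 to 1448) with SR1848 and 192 CPM (165 to 253) with DMSO (2.37 log2, SE 0.11), and Orc5, of the origin recognition complex, rose by 2.80 (SE 0.19).

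Genome maintenance and stress lists held more falls than rises, as did all genes tested (43.6% fell and 37.8% rose). Of 41 DNA repair genes 20 fell (48.8%) and 11 rose (26.8%), with a median of -0.75. Apex1, of base excision repair, was at -4.22 (SE 0.42) and Msh3, of mismatch repair, at 2.22 (SE 0.19). Of 19 p53 targets 13 fell and 4 rose (median -2.19). The summed share of the p53 list was nearly the same in both groups, at 0.413% to 0.853% (median 0.6225%) with SR1848 and 0.429% to 0.750% (median 0.6229%) with DMSO. Cdkn1a, the cell cycle inhibitor p21, was at 19.4 CPM (13.0 to 59.7) with SR1848 and 103 CPM (70.4 to 165) with DMSO (-2.19 log2, SE 0.20), and Mdm2, which marks p53 for degradation, fell by 2.85 (SE 0.23). Plk2, a stress-induced kinase, rose by 2.36 (SE 0.40). Of 27 genes of oxidative and metal stress 14 fell (51.9%) and 8 rose (29.6%), with a median of -0.65. The summed share of these genes was higher, at 0.316% to 0.493% (median 0.409%) with SR1848 and 0.223% to 0.368% (median 0.284%) with DMSO. Mt2, a metallothionein, fell by 3.31 (SE 0.30) and Gpx4, which repairs lipid peroxides, fell by 2.90 (SE 0.25). G6pdx, which makes NADPH, was at 1683 CPM (851 to 1915) with SR1848 and 117 CPM (56.5 to 227) with DMSO (3.65 log2, SE 0.18), and Pgd, a later enzyme of that pathway, fell by 3.97 (SE 0.29).

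Chromatin and lipid lists were also mixed, beside 43.6% falls and 37.8% rises among all genes tested. Of 37 genes of DNA methylation and histone demethylation 18 fell (48.6%) and 12 rose (32.4%), with a median of -0.55. Kdm5b, a demethylase of histone H3 lysine 4, was at 13.8 CPM (5.99 to 42.9) with SR1848 and 787 CPM (377 to 1091) with DMSO (-5.64 log2, SE 0.27), and Kdm4c, a demethylase of lysine 9, was at 0 CPM (0 to 2.09) with SR1848 and 106 CPM (66.8 to 174) with DMSO. Dnmt3l, a cofactor of DNA methylation in oocytes, rose by 2.82 (SE 0.18) and Tet3, the oxidase of 5-methylcytosine stored in the egg, by 1.55 (SE 0.14). Among 51 chromatin remodellers and bromodomain genes 25 fell (49.0%) and 11 rose (21.6%), with a median of -0.51. Hdac1, a deacetylase, was at 21.2 CPM (8.38 to 53.5) with SR1848 and 324 CPM (244 to 424) with DMSO. Of 43 lipid and sterol genes 24 fell and 8 rose (median -1.02): Elovl6, which lengthens fatty acids, fell by 6.85 (SE 0.67) and Dgat2, which makes triglycerides, fell by 5.42 (SE 0.56), and Nsdhl, of cholesterol synthesis, rose by 3.45 (SE 0.58).

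The 2-cell transcripts, genes known for a burst at this stage, did not move as a block. Of 50 measured 30 fell, 8 rose and 12 did not pass (median -1.52 log2), and 17 had every SR1848 embryo below every DMSO embryo. All 3 Trim43 genes fell (-6.93 to -7.56), as did 4 of 4 Tdpoz genes and 4 of 4 Pramel genes, under every scaling. Trim43b (chromosome 9, 89084624 to 89092835) was at 6.00 CPM (0.485 to 25.5) with SR1848 and 877 CPM (494 to 1581) with DMSO. Tdpoz2 had no count in any SR1848 embryo and 9.44 to 55.6 CPM with DMSO. Obox6, a homeobox gene, was at 1.15 CPM (0 to 126) with SR1848 and 763 CPM (615 to 911) with DMSO; without embryo 4 the highest SR1848 value was 11.9 CPM. Ubtfl1, a relative of Ubtf active in early embryos, fell by 5.23 (SE 0.31).

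The families often used to mark the 2-cell state did not follow Trim43. With TMM scaling 1 of 4 Zscan4, 3 of 5 Usp17l and 2 of 2 Tcstv genes rose and the others did not pass, whereas 2 Zscan4 genes and 1 Usp17l gene fell when scaled to the maternal list and the others did not pass. Zscan4f, of a telomere-linked family, was at 136 CPM (2.33 to 418) with SR1848 and 25.4 CPM (9.85 to 60.7) with DMSO (2.53 log2, SE 0.39), and Tcstv1 was at 61.8 CPM (39.4 to 352) with SR1848 and 11.6 CPM (2.32 to 55.5) with DMSO. Zscan4c was at 6.07 CPM (0 to 87.6) with SR1848 and 7.64 CPM (0 to 25.3) with DMSO and did not pass. Copies within these families are nearly identical, so how estimated counts fall among them is uncertain. Of 7 Obox genes 4 rose and 3 fell (Obox6, Obox8 and Obox3), and 1 rose and 3 fell when scaled to the maternal list. The summed share of the 2-cell list was 0.0699% to 0.567% (median 0.0927%) with SR1848 and 0.514% to 0.953% (median 0.711%) with DMSO, and without embryo 4 the highest SR1848 share was 0.181%.

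**Figure D5:**
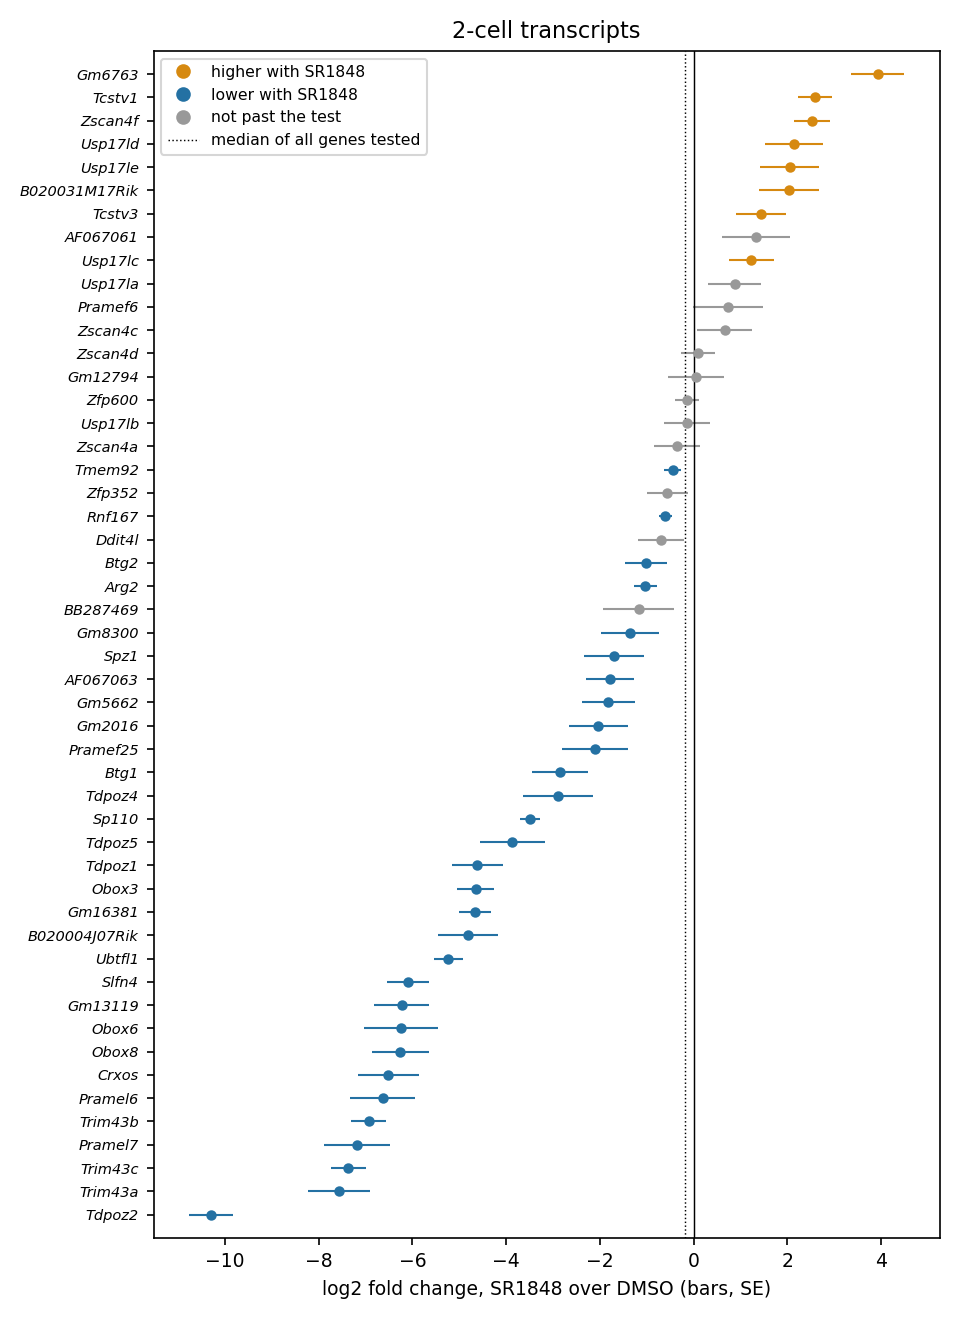
Fold change of SR1848 over DMSO (log2, bars are SE) of the 50 measured 2-cell transcripts, coloured by direction where the edgeR adjusted p is under 0.05; the dotted line is the median of all genes tested (-0.18). Trim43, Tdpoz and Pramel genes are among the falls and Zscan4f, Tcstv and Usp17l genes among the rises; Tdpoz2 has no count with SR1848, so its point depends on the prior count.

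Factors of the later lineages and of pluripotency divided in the same way. Of 29 measured 14 fell (48.3%) and 9 rose (31.0%), not far from the shares of all genes tested (43.6% and 37.8%). The median was -0.58, and 2 rose and 23 fell when scaled to the maternal list. Dppa4 was at 2.38 CPM (0 to 12.9) with SR1848 and 493 CPM (289 to 885) with DMSO, and its partner Dppa2 was at 122 CPM (71.8 to 216) with SR1848 and 725 CPM (336 to 1574) with DMSO. Klf5, a factor of the first lineage decision, fell by 4.60 (SE 0.40) and Zfp42, the pluripotency marker Rex1, fell by 4.79 (SE 0.53), each with no overlap. Pou5f1, the pluripotency factor OCT4, rose to 248 CPM (118 to 387) with SR1848, against 35.2 CPM (6.89 to 80.0) with DMSO (2.84 log2, SE 0.24), and was still 0.94 higher when scaled to the maternal list. Nanog did not pass (5.18 CPM, 2.04 to 16.7, with SR1848 and 3.70 CPM, 1.31 to 12.4, with DMSO).

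Maternal transcripts were mostly higher. Of 75 measured 67 rose and 5 fell (median 1.77 log2), against 27 and 33 when they were themselves the basis of the scaling (median -0.22), and 27 had every SR1848 embryo above every DMSO embryo. Their summed share was 6.96% to 11.2% (median 8.71%) with SR1848 and 1.72% to 3.32% (median 2.37%) with DMSO. Wee2, the kinase that holds the egg's cell cycle, was at 4375 CPM (2888 to 5123) with SR1848 and 338 CPM (166 to 692) with DMSO (3.47 log2, SE 0.17, edgeR adjusted p = 4.87e-19). Nobox, a transcription factor of oocytes, was at 337 CPM (149 to 505) with SR1848 and 17.1 CPM (4.85 to 43.7) with DMSO, and Spin1, a spindle-associated chromatin reader and 1 of the 5 most abundant nuclear genes, was at 25970 CPM (17657 to 29453) with SR1848 and 3797 CPM (1821 to 6207) with DMSO. Gdf9 and Bmp15, the growth factors oocytes secrete, rose by 1.81 (SE 0.12) and 2.62 (SE 0.24). Among families, 5 of 5 Tcl1b and 4 of 4 Oog genes rose, 11 of 14 Nlrp and 9 of 10 oocyte Fbxw genes; when scaled to the maternal list 5 Tcl1b, 3 Oog and 5 Nlrp genes rose, and 1 Oog, 6 Nlrp and all 10 Fbxw genes fell.

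The 5 maternal transcripts that fell were Tacc3, Dppa3, Ddx4, Zar1l and Zp3. Tacc3, of the spindle, was at 31.0 CPM (17.9 to 67.4) with SR1848 and 396 CPM (218 to 508) with DMSO. Dppa3, which guards maternal DNA methylation, was at 868 CPM (370 to 1713) with SR1848 and 2772 CPM (1862 to 3502) with DMSO (-1.61 log2, SE 0.18). Zp2 and Zp3, both of the zona pellucida, went opposite ways: Zp2 rose by 2.42 (SE 0.20) with no overlap and Zp3 fell by 0.97 (SE 0.18). Khdc3, Nlrp4c and Fbxw18 did not pass.

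Several proteins have a form with a known role in oocytes or eggs, here called the oocyte form, and another form encoded by a separate gene. For 8 such pairs the forms were set side by side. The pairs were chosen after the values were seen, so the count of pairs is no test. The oocyte form rose in all 8 and the other form fell in 7; when scaled to the maternal list the oocyte form rose in 7 and the other form fell in all 8. Wee2 rose by 3.47 log2 and Wee1 fell by 3.99 (1.73 CPM, 0 to 9.06, with SR1848 and 29.0 CPM, 9.57 to 65.3, with DMSO). Pabpc1l, the oocyte poly(A)-binding protein, rose by 4.68 and Pabpc1 fell by 3.19. Npm2, the egg nucleoplasmin, rose by 2.58 and Npm1 fell by 3.16. Kpna7, an importin of eggs, rose by 3.32 and Kpna2 fell by 2.65, and Cdc25b, the phosphatase that restarts meiosis, rose by 3.19 while Cdc25c fell by 4.47. Eif4e1b rose by 3.61 and Eif4e fell by 0.90, and Pabpn1l rose by 2.19 and Pabpn1 fell by 3.78. Ybx2, which packages stored mRNA, rose by 3.00, and Ybx1 did not pass (-0.26, edgeR adjusted p = 0.235). Scaled to the maternal list, Pabpn1l did not pass (0.25, edgeR adjusted p = 0.480) and Ybx1 fell (-2.29).

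Of 40 genes of mRNA decay and poly(A) control 18 rose and 17 fell (median -0.06), shares near those of all genes tested (37.8% and 43.6%), and 2 rose and 30 fell when scaled to the maternal list. Btg4, which brings the deadenylase to maternal mRNA, was at 2611 CPM (1238 to 4980) with SR1848 and 370 CPM (109 to 765) with DMSO (2.96 log2, SE 0.25), and Dcp1a, a decapping factor, was at 749 CPM (456 to 1007) with SR1848 and 127 CPM (69.9 to 239) with DMSO. Cnot7, a deadenylase subunit, rose by 1.82 (SE 0.14) and reversed to -0.15 when scaled to the maternal list. Ythdf2, a reader of methylated mRNA that promotes its decay, was at 35.9 CPM (3.58 to 88.5) with SR1848 and 633 CPM (388 to 924) with DMSO, and Papola, the poly(A) polymerase, fell by 3.02 (SE 0.16).

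The most abundant nuclear genes were Olfr624, Hexdc, Spin1, Gm18310 and Tmem72. Olfr624 had 21620.0 to 82771 CPM (median 30163) with SR1848 and 6205 to 12985 CPM (median 10368) with DMSO, and SR1848 embryo 10 was the highest for it, for Hexdc and for Gm18310. Without embryo 10 the highest SR1848 value of Olfr624 was 54585 CPM. Tmem72, a membrane protein gene, went the other way, at 594 CPM (282 to 5844) with SR1848 and 17823 CPM (7625 to 27581) with DMSO (-4.20 log2, SE 0.35), with SR1848 embryo 4 the highest. Without embryo 4 its highest SR1848 value was 1218 CPM.

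Embryos within the SR1848 group differed somewhat more from each other than DMSO embryos did. Over the 2612 genes whose mean reached 5 log2 CPM in both groups, the median SD was 0.470 log2 with SR1848 and 0.408 with DMSO, and the SD was larger with SR1848 in 1589 of them. Without embryos 4 and 10 the median SD with SR1848 was 0.433 log2, and it was larger than with DMSO in 1401 genes. The first principal component held 78.4% of the variance over 3975 genes and separated the groups, and embryo 4 was the SR1848 embryo nearest to DMSO on it (-38.1, with SR1848 embryos at -79.0 to -38.1 and DMSO embryos at 55.7 to 89.7). Embryo 4 was the highest SR1848 embryo in 722 of the 2293 genes whose groups do not overlap below DMSO. Embryo 10 stood apart on the second component (3.03%), at -62.0. The other SR1848 embryos divided by their number on the third component (2.28%). Embryos 1 to 7 lay at -32.8 to -5.69, and embryos 9 and 11 to 17 at 2.29 to 21.6. Embryo 10 was at -26.3 there, and DMSO embryos at -4.73 to 4.79. The labels give no batch for these numbers, and what the division reflects was not tested. Without embryo 4, 4473 genes were higher and 5284 lower, and without embryo 10 4514 were higher and 5284 lower.

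The 5 genes with the largest SD in each group were looked up among genes whose mean in that group reached 5 log2 CPM. Among SR1848 embryos, Etv1, an ETS transcription factor, ran from 0 to 70.3 CPM (median 41.7) and Kdm1b, a demethylase of histone H3 lysine 4 in oocytes, from 0.292 to 371 CPM (median 198), and embryo 10 was the lowest for both. Without it the lowest was 33.1 CPM for Etv1, and Kdm1b had a median of 201 CPM. Gli3, a factor of Hedgehog signalling, ran from 0 to 438 CPM with SR1848 and from 0 to 128 CPM with DMSO and did not pass. Among DMSO embryos, Kank4 ran from 1.36 to 259 CPM (median 84.0), against at most 4.79 CPM with SR1848. Sec1, Rps3a2, Gm12614 and Gm12624 also varied widely among DMSO embryos. Gm12614 and Gm12624 have identical values and cannot be told apart, and neither can Gm6763 and Gm8764, which varied widely among SR1848 embryos.

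The same levels were looked for in experiment 2, whose 24 SR1848 embryos were not part of the tests above, on a scale shared by both experiments. Their medians lay under the lowest DMSO embryo of experiment 1 in 2288 of the 2293 genes that separated downward, and over the highest in 1203 of 1203 that separated upward. All 24 did so in 1788 and 962 genes. In these counts the DMSO embryos are those of experiment 1, so a difference between the experiments and an effect of SR1848 cannot be told apart. The same DMSO embryos had also served to pick these genes, and the share over all genes tested was not counted. Of the 10 libraries labelled DMSO in experiment 2, 8 held 17.4 to 2631 CPM of a GFP sequence that the other two had at no more than 0.403 CPM, so the comparison within experiment 2 is given only as labelled: 1379 genes were higher (11.1%) and 2953 lower (23.8%) of 12426 tested. Of 4552 genes lower in experiment 1 and tested there, 2384 were lower and 17 higher, and of 4452 higher in experiment 1, 1192 were higher and 144 lower. Ctsc had a median of 6.26 CPM (0 to 31.9), Rab20 2.07 CPM, Ppat 2.86 CPM, Brix1 80.2 CPM, Wee2 4097 CPM, Car9 325 CPM and Gadd45g 33.3 CPM (3.77 to 127) in the SR1848 embryos of experiment 2. Within experiment 2 as labelled, Ctsc (-5.37 log2), Rab20 (-5.39), Ppat (-5.02) and Brix1 (-1.16) were lower. Wee2 (0.31 log2, edgeR adjusted p = 0.343), Car9 (0.79, adjusted p = 0.0982) and Gadd45g (-0.69, adjusted p = 0.213) did not pass there.

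Most markers of other cells were at 0 or had a median under 1 CPM, but some were not, and the sums differed between the groups. The 15 cumulus and granulosa markers summed to 1.38 to 85.3 CPM (median 19.2) with SR1848 and 39.1 to 141 CPM (median 86.3) with DMSO; Ptx3 had no count in any of the 32 libraries and 10 of the 15 had a median under 1 CPM. Of the tested ones, Amhr2, a receptor of anti-Müllerian hormone, was at 0 CPM (0 to 13.6) with SR1848 and 73.8 CPM (34.7 to 131) with DMSO (-6.19 log2), and Col4a2, a collagen, rose by 2.57 (0.229 to 29.3 CPM with SR1848 and 0 to 10.5 CPM with DMSO) but did not pass when scaled to the maternal list. The 12 spermatid markers summed to 363 to 1060 CPM (median 789) with SR1848 and 97.5 to 278 CPM (median 149) with DMSO. Nearly all of that is Odf2, a protein of centrioles as well as sperm tails, at 356 to 1047 CPM with SR1848 and 80.2 to 257 CPM with DMSO, and Tnp1, Tnp2 and Smcp were at 0 in all libraries. The 12 blood and epithelium markers summed to 47.9 to 274 CPM (median 89.3) with SR1848 and 148 to 344 CPM (median 228) with DMSO; Hbb-bs, Krt5 and Krt14 were at 0 in all libraries. Of the 5 tested, Hba-a1 (1.37 log2), Hba-a2 (0.94) and Krt7 (1.26) rose, and all 3 were below 0 when scaled to the maternal list, while Epcam fell by 2.91. Hba-a1 (0.82 log2, edgeR adjusted p = 0.158) and Hba-a2 (0.70 log2, adjusted p = 0.0957) did not pass without embryo 4, the highest for both. What these markers contribute to the lists above was not tested.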

How the data were processed

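Single 2-cell embryos were sequenced by SmartSeq2, and the authors deposited 1 table of kallisto estimated counts per transcript for all libraries, with bcl2fastq, Trim Galore 0.6.2, kallisto 0.46.1, R 3.5.1 and DESeq2 1.32.0 named, per the submitters' processing notes. Those notes name the builds mm10 and hg19, with no role stated for hg19. A second table deposited by the authors holds log2 fold changes, their standard errors, p-values and adjusted p-values, and a mean signal of normalized counts, per the file headers, for a comparison not described here. Of it only the pairing of transcripts with genes was used.

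Columns were matched to samples by condition, number and experiment. The prefix ComS was taken as SR1848, and C88 as SR1848 with Nr5a2 mRNA, because the set of numbers under each prefix matches the titles of that condition and no other. Of 119358 entries 116770 were paired with genes by GENCODE M21 and 892 by the authors' table; 1691 stayed unpaired (0.557% of counts) and 5 entries that are not annotated transcripts (GFP, repeats and an Nr5a2 sequence) were kept apart (0.158%). Of the transcript counts 26.3% were not whole (tolerance 1e-09). They were added up per gene, and the sums were rounded to integers.

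edgeR 4.0.16 (R 4.3.3) fitted both groups of experiment 1 with TMM scaling, filterByExpr and the quasi-likelihood test, and p-values were adjusted by Benjamini-Hochberg over the 11797 genes that passed. Fold changes are SR1848 over DMSO, and 0.05 is the threshold. CPM use TMM-scaled library sizes. Counting error was not measured apart from the spread between embryos. It weighs most on genes of a few counts, where 3 counts per library is the floor. Genes with a count were compared after thinning to 1000000 counts, by a 2-sided permutation test.

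Gene lists (32, of 1466 symbols, 8 unmatched), the members of each group and the rule for named genes were chosen with earlier results of these data known. The rule names the 12 largest falls and rises whose mean in the higher group reached 5 log2 CPM, with no overlap between groups (predicted genes left out), the 2 to 4 smallest p per list, the 6 highest DMSO medians among genes with no count in at least 14 SR1848 embryos, the 5 most abundant nuclear genes, the 5 with the largest SD in each group among genes whose mean there reached 5 log2 CPM, and Nr5a2 with members of its families. Promoters came from RefSeq, GRCm38.p6. Alternatives were other scalings, no filter, all libraries, thinned counts, the replicate number as a block, DESeq2 1.42.0, and, added after seeing the data, embryos 4 and 10 left out and the Nr5a2 sequence entry added to its gene. A few named genes are not reported here.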

Additional observations from a re-analysis of the deposited data

Results flagged for a closer look

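Of 5 entries of the count table that are not annotated transcripts and were not used in any comparison of the report, 4 had a level above every DMSO embryo in at least 1 SR1848 embryo. The B1 repeat sequence reached 27.3 CPM in SR1848 embryo 10, against at most 14.7 CPM with DMSO, and its median was 5.39 CPM with SR1848 and 7.01 CPM with DMSO. The B2 repeat sequence reached 21.2 CPM in SR1848 embryo 16, against at most 13.8 CPM with DMSO. In all, 6 SR1848 embryos were above the highest DMSO embryo for B2, and 1 for B1. The first GFP sequence reached 3.23 CPM in SR1848 embryo 9, against at most 0.765 CPM with DMSO, with its median at 0 in both groups. The second GFP sequence reached 0.304 CPM in SR1848 embryo 14 and had no count in DMSO embryos. The labels name no injected mRNA for either group. The fifth entry, an Nr5a2 sequence, is given in the report beside Nr5a2. These differences were not tested.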

How the results depend on the processing

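Scaling libraries to the maternal list moved the counts of calls most: 845 genes were then higher and 8775 lower, 485 and 8028 at least 2-fold, and the groups did not overlap in 41 genes above and 4716 below DMSO. By construction it sets the maternal list near 0. The named rises that turned below 0 were Polr2c (-0.30), Brdt (-0.089), Sdha (-0.19), Cnot7 (-0.15), Hexdc (-0.018), Gm18310 (-0.12), Olfr624 (-0.14), Scap (-0.30), mt-Co1 (-1.39), mt-Co2 (-1.57), mt-Co3 (-1.32), Krt7 (-0.72), Kdm1b (-1.08), Hba-a1 (-0.38) and Hba-a2 (-0.90). Without the filter on low counts more genes were tested (26730), with 7232 higher and 8407 lower, and 6441 and 7912 at least 2-fold. With all libraries of experiment 1, 4401 genes were higher and 3919 lower (52.9% of calls higher, median 0.17), and 249 genes had no overlap above and 1 below DMSO; the added libraries hold few counts. With relative log expression 4181 genes were higher and 5418 lower, with total counts 4285 and 5299, and with DESeq2 4247 and 5505. Nr5a2 stayed lower under every setting run, from -1.69 with its sequence entry added and -2.44 with all libraries to -5.14. The promoter motif restricted to TCAAGGTCA was counted by gene, among genes with a window. It was found for 0.360% of all genes tested, 0.885% of those at least 16-fold lower and 0.322% of those 2-fold to 16-fold lower. The share was 0.442% of lower, 0.178% of higher, 0.160% of at least 4-fold higher genes and 0.538% of genes not called. Same-numbered embryos of the 2 groups were little alike: over 13 shared numbers the correlation of deviations was -0.053 to 0.156 (median 0.049). Other pairs had a median of -0.0066. Of the 13 pairs 3 were over 0.1, and 2 embryos correlated best with their own number. Whether embryos of the same number share a litter or a day was not tested. With the replicate block 4114 genes were higher and 4832 lower, Nr5a2 was at -2.93, and Kdm1b did not pass (0.68, edgeR adjusted p = 0.157).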

Other observations

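The libraries left out of the comparison gave the following values. SR1848 embryo 8, with 621489 counts, held 34.5 and 54.0 CPM of the first and second GFP sequences and 679.8 CPM of the separate Nr5a2 sequence, which the other SR1848 embryos held at no more than 86.0 CPM. It held 14423 genes, 50.4 CPM of Nr5a2, 1.55% of counts in maternal transcripts, 0.798% in nucleolar genes and 0.722% in ribosomal protein genes. Its values for Nr5a2, maternal and nucleolar genes lie outside the range of the other 16 SR1848 embryos. DMSO embryo 16 held 5715 genes and 31.8% of its counts in mitochondrially encoded mRNAs, with Nr5a2 at 24.1 CPM and the first GFP sequence at 4.86 CPM. DMSO embryo 13 held 2867 genes, 3.68% of counts in maternal transcripts, 5.07 CPM of Nr5a2 and 146 CPM of the first GFP sequence, and DMSO embryo 6 held 1138 genes, 3.35 CPM of Nr5a2 and 317 CPM of that sequence.

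Some gene groups of the SR1848 embryos of experiment 2 can be set beside those of experiment 1 as shares of counts. Nucleolar genes held 0.275% to 0.521% (median 0.340%) in these 24 embryos, ribosomal protein genes 0.188% to 0.723% (median 0.324%) and maternal transcripts 6.43% to 12.3% (median 9.91%). All 24 lay beyond the DMSO embryos of experiment 1 for these 3 groups, below for the first and second and above for maternal transcripts. For 2-cell transcripts the share was 0.0544% to 0.684% (median 0.115%), and 20 of 24 lay below the lowest DMSO embryo of experiment 1.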
